A study of Rattus norvegicus with 6 samples.

Results

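The genes described here encode the secreted Wnt ligands, their receptors and antagonists, and the intracellular proteins that pass the signal to the nucleus. They were taken from Affymetrix arrays of rat aortic smooth muscle cells by gene symbol: every probe set annotated to a single gene whose symbol begins with Wnt, Fzd, Sfrp or Dkk and a digit, or with Tcf7, and those of Axin1, Axin2, Lrp5, Lrp6, Dvl1 to Dvl3, Lef1, Ctnnb1, Apc, Ror1, Ror2 and Wif1. This gave 67 of 31099 probe sets, for 40 genes: 13 ligands, 9 receptors, 7 secreted antagonists, 7 cytoplasmic proteins and 4 nuclear factors. Ror1 and Ror2 were not analysed here.

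Rat aortic smooth muscle cells between passages 3 and 5 were grown in 10% fetal calf serum and then kept for 24 h in medium with 0.1% albumin, a step shared by both groups. Confluent cells of the 3 shear samples then spent 24 h under laminar flow at 14 dyn/cm2 in a parallel-plate chamber, and those of the 3 control samples stayed static. Each shear sample carries the pairing number of 1 static sample, and the comparison asks how transcript levels differ between them. The labels give no strain, do not say what a pair shares or where static cells were held, and do not name separate animals or cultures. Unless said otherwise, p-values rest on how the shear-minus-static difference varied between the 3 pairs, with variances moderated across all probe sets tested. This spread may thus be technical only. In bulk RNA, fewer cells carrying a transcript and less transcript per cell cannot be told apart.

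A Wnt ligand binds a Frizzled receptor (Fzd) at the cell surface, with Lrp5 or Lrp6 as co-receptor in the beta-catenin branch of the pathway. Dishevelled (Dvl) relays the signal to the destruction complex, in which Axin and Apc hold beta-catenin (Ctnnb1) for phosphorylation by Gsk3b. When the complex is held off, beta-catenin accumulates and acts with TCF/LEF factors on target genes. Other branches, which run through planar polarity proteins or calcium, do not need beta-catenin. In the vessel wall, Wnt signalling is known for roles in smooth muscle proliferation, migration and survival.

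Shear and static arrays lay apart on the first principal component (85.8% of the variance), and shear array 1 lay apart from the rest on the second (6.28%). Median signal was 21.1 to 22.6 in static and 17.3 to 18.9 in shear arrays. Of 12 smooth muscle markers, 7 fell and 0 rose, with a summed signal of 8860 to 9901 in static and 6568 to 6988 in shear arrays. Acta2 fell by 1.10 on the log2 scale defined next, and Tagln did not pass (0.07). The called share of this list was 58.3%. Over all genes, each by its brightest probe set, 58.1% of those tested were called, 27.9% as risen and 30.2% as fallen. Of 11 endothelial markers 7 lay below the low-signal limit, also given next, Pecam1, Vwf, Kdr and Nos3 among them, and the list summed to 207 to 227 in static and 167 to 186 in shear arrays. Of the 4 tested, Egfl7 fell, from a mean of 110.5 to 79.4, and 3 did not pass. The 11 leukocyte markers summed to 213 to 265 and 164 to 208, and 5 of them lay below the limit, including Ptprc. Of the 6 tested, Cd14 was the brightest and fell, from a mean of 181.9 to 107.9. Cd68 (10.1 to 25.8) and Coro1a (4.8 to 12.2) rose from low signals, and 3 did not pass. The 10 fibroblast markers summed to 6679 to 9747 and 6185 to 9604, with 3 risen and 4 fallen (77.8% of those tested). For RNA quality, 3′ over 5′ signal (log2) was 0.22 to 0.29 in static and 0.37 to 0.42 in shear arrays for beta-actin, and 0.16 to 0.17 and 0.15 to 0.16 for Gapdh. The part of these differences in the results that follow was not tested.

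Wnt genes changed in both directions under shear. Changes are given as shear minus static on a scale of log2(signal + 16), which understates the change of dim genes, and were called at an adjusted p under 0.05. Probe sets whose mean on that scale was among the lowest 30% (under 4.50, which corresponds to a signal of 6.69) were not tested. Of the 67 Wnt probe sets, 49 were tested and 18 lay near the floor. Of the 49, 15 rose, 16 fell and 18 did not pass. Over all 21729 probe sets tested, 52.8% were called, 24.3% as risen and 28.5% as fallen, so calls were common everywhere on these arrays, and the share among the Wnt probe sets was 63.3%. Their median change was -0.06, against -0.07 for all probe sets tested, and their median absolute change 0.47 against 0.38. Counted by gene, each by its brightest probe set, 63.6% of 33 tested Wnt genes were called, against 58.1% of all genes. The median absolute change by gene was 0.42, against 0.41. The limit acts on the mean of all 6 arrays, so a probe set that is dim in 1 group is tested only because the other group is bright: Fzd5 and Wif1 were under the limit in static cells, and 1 probe set each of Fzd4, Lrp5 and Sfrp1 under shear. At least 1 probe set rose for 12 genes and fell for 10, no gene had probe sets called in both directions, 11 tested genes had no call, and 7 had no tested probe set. All 31 called probe sets had the same sign in all 3 pairs, but the call rests on these same differences and favours such agreement.

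The balance of rises and falls depended on the scaling. Centring each array on its median moved the median change of all probe sets by 0.15, and quantile normalization moved it by 0.09. Risen probe sets made up 48.4% of the Wnt calls in the deposited scaling, but 57.7% after quantile normalization (15 risen, 11 fallen) and 63.0% after median centring (17 risen, 10 fallen), against 46.1%, 52.4% and 59.1% over all probe sets. The fallen count was also 10 without pair 2 and 9 when the dimmer 50% of probe sets were left out, which tested 31 Wnt probe sets. Over all probe sets, 6188 fallen became 4754 and 5159 in these 2 settings.

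**Figure D1:**
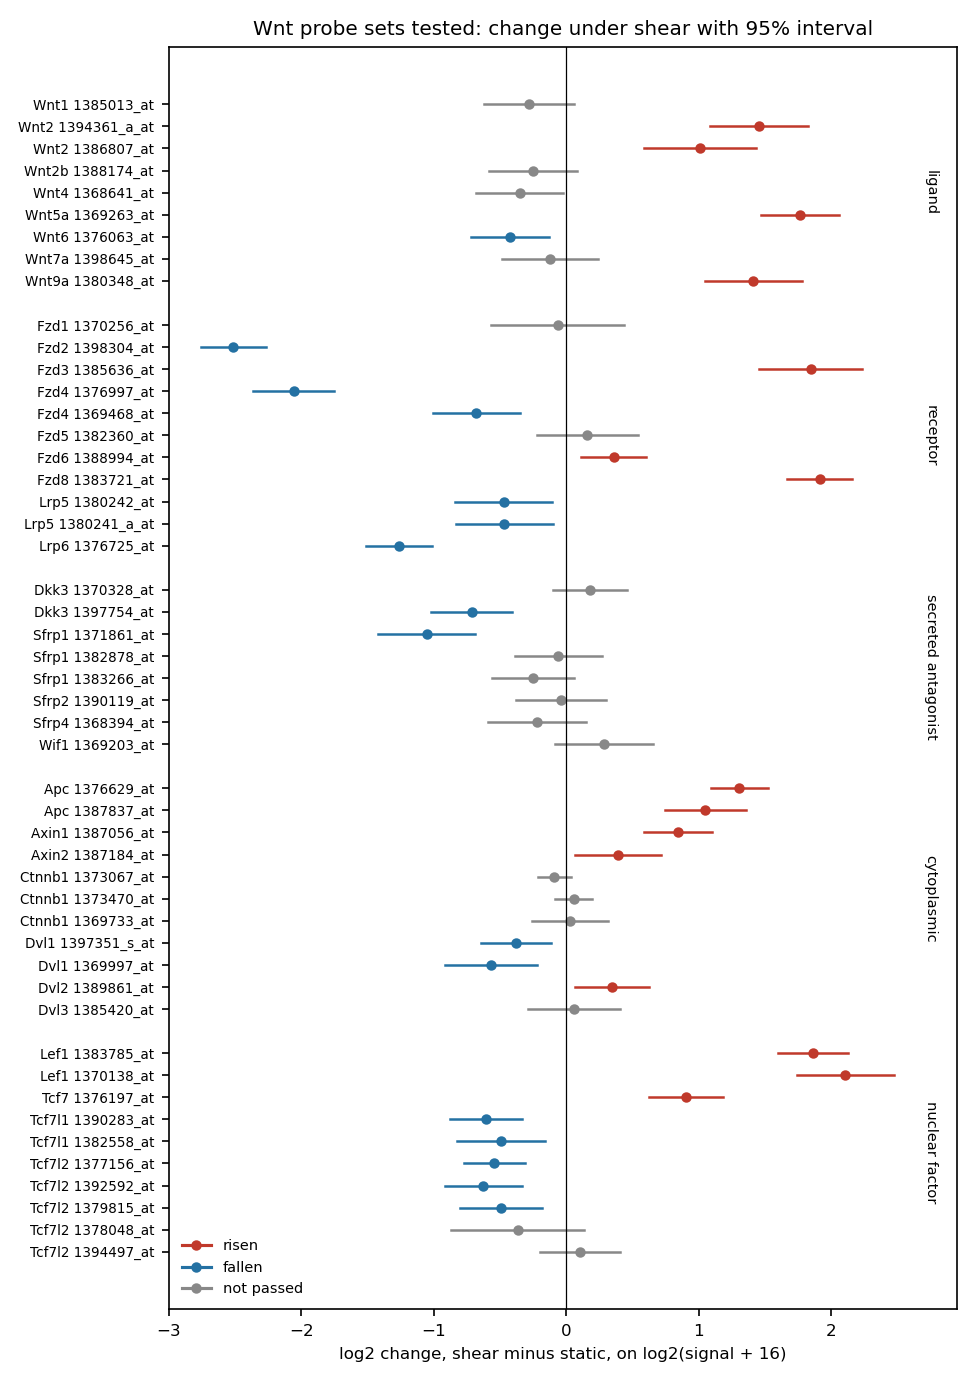
Change of each tested Wnt probe set, shear minus static on the log2(signal + 16) scale, grouped by role; points are estimates and lines their 95% intervals from the paired limma fit (3 pairs), coloured by call. Fzd2 (-2.51) and Fzd4 (-2.06) lie farthest to the left, and both Lef1 probe sets (2.11 and 1.86) lie among the farthest to the right.

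Among the ligands, Wnt5a, Wnt9a and Wnt2 rose under shear, and Wnt6 fell. Of 17 ligand probe sets, 9 were tested, 4 rose (for these 3 genes), 1 fell and 4 did not pass. The share called was 55.6%, near the 52.8% over all probe sets tested. Every risen ligand had all 3 shear arrays above all 3 static arrays. These are the values that gave the call, so the separation is no separate support for it. Over all 31042 probe sets other than controls, called or not, 47.2% had groups that did not overlap, 20.3% with shear higher and 26.9% with shear lower.

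Wnt5a, the best-known ligand of the branches that do not need beta-catenin, had static signals of 10.3, 8.7 and 7.1 and sheared signals of 64.7, 66.7 and 72.4 (probe set 1369263_at, arrays in the order of the pairs here and throughout). Static cells were therefore close to the floor and sheared cells clearly above it, with little spread in either group. The mean rose from 8.70 ± 1.60 to 67.9 ± 4.0 (SD, n = 3), a change of 1.77 (95% interval 1.47 to 2.06, adjusted p = 2.3e-05). Because the static signal is low, the log2 change ran from 0.86 with a pseudocount of 64 to 2.84 with a pseudocount of 1.

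Wnt9a, a ligand that can act through beta-catenin, was measured at 32.4, 30.7 and 31.8 in static arrays and at 158.6, 94.6 and 89.5 under shear (1380348_at). Shear array 1 was the highest of the 6. The mean went from 31.6 ± 0.862 to 114 ± 38.5 (SD, n = 3), a change of 1.41 (95% interval 1.05 to 1.78, adjusted p = 0.0002).

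Wnt2, a beta-catenin ligand, has a pair of probe sets, and both rose. The brighter (1394361_a_at) gave 8.6, 12.4 and 15.8 in static arrays and 34.2, 77 and 81.7 in shear arrays. The other (1386807_at) gave 10.5, 16 and 10.8 against 20.9, 61.8 and 48.7. Shear array 1 was the lowest shear array on both, although still above every static array. Their changes were 1.45 (95% interval 1.08 to 1.82, adjusted p = 0.00018) and 1.01 (0.59 to 1.43, adjusted p = 0.0022), and pair 1 gave 1.03 and 0.48 where pair 2 gave 1.71 and 1.28.

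Wnt6 signals were 23.2, 26.7 and 20.2 in static arrays and 11.6, 18.5 and 10.4 under shear, so the groups did not overlap. Wnt6 fell by 0.42 (95% interval -0.72 to -0.13, adjusted p = 0.023), a call that was lost after quantile normalization (-0.29), after median centring (-0.27), without the low-signal limit, and with any 1 pair left out. Wnt2b did not pass, at 30.6 ± 3.71 in static and 23.4 ± 6.24 in sheared cells (SD, n = 3; -0.25, adjusted p = 0.18). Wnt1 (-0.28, adjusted p = 0.14), Wnt4 (-0.35, adjusted p = 0.071) and Wnt7a (-0.12, adjusted p = 0.55) also had lower shear means without passing. Wnt1 (-0.42) and Wnt2b (-0.39) passed as fallen without pair 1, in a fit that rests on 2 pairs.

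Wnt11, another ligand of the beta-catenin-independent branches, was too dim to be tested. One of its probe sets (1395594_at) read 0.3, 0.4 and 0.6 in static arrays and 5.8, 15.6 and 10.0 under shear, and the other (1397501_at) read 1.3, 3.0 and 0.8 against 6.9, 8.9 and 7.1. On both, every shear array was above every static array, with shear signals still near the low-signal limit. Wnt5b, Wnt8b, Wnt10a and Wnt16 were near the floor in both groups, with means of 0.37 to 2.63 in static and 0.73 to 1.40 in sheared cells, as were the second probe sets of Wnt6 and Wnt7a.

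**Figure D2:**
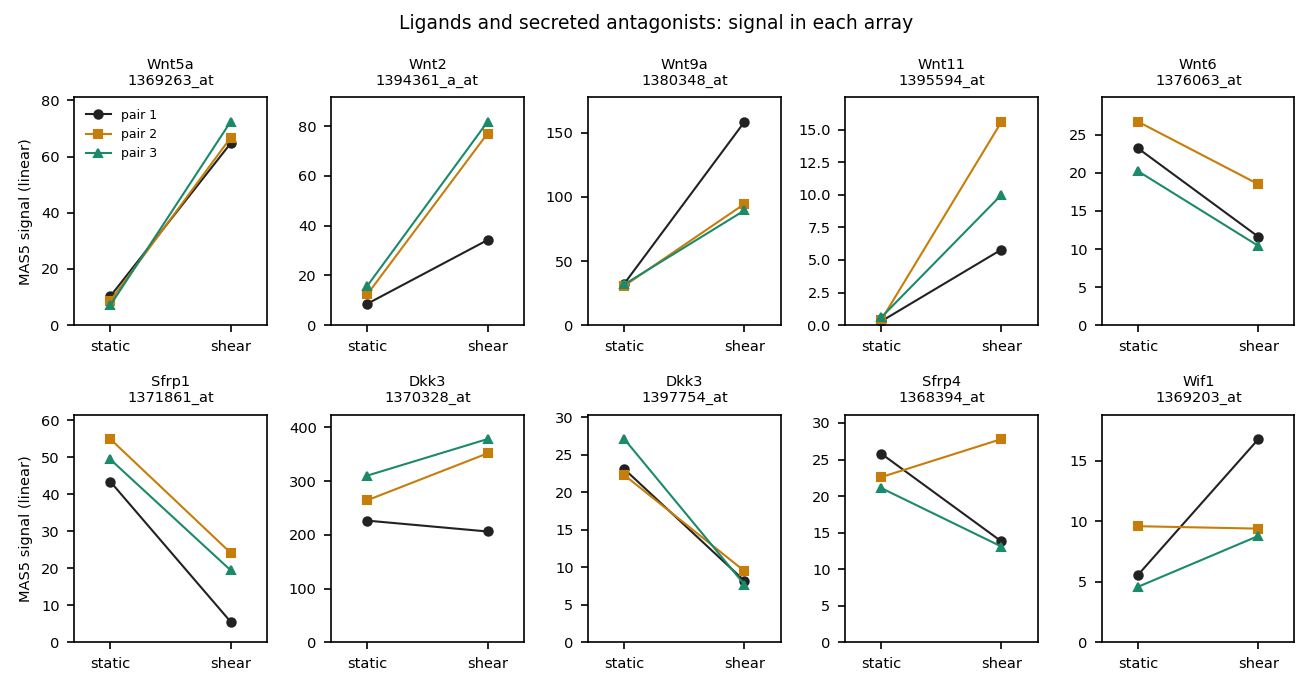
MAS5 signal (linear axis from 0, a separate scale per panel) of selected ligand and secreted antagonist probe sets in each array; lines join the static and shear array of a pair. Wnt5a, Wnt2, Wnt9a and Wnt11 were higher under shear in all 3 pairs, Sfrp1 was lower in all 3, and the Dkk3 panels show a pair of probe sets that did not move alike.

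Receptors changed in both directions. Fzd2 and Fzd4 and the co-receptor Lrp6 fell, while Fzd8 and Fzd3 rose. Of 12 receptor probe sets 11 were tested, 3 rose, 6 fell and 2 did not pass (81.8% called, against 52.8% over all probe sets tested). Of the 9 receptor genes, each by its brightest probe set, 3 rose, 4 fell and 2 did not pass. That is 77.8% called, against 58.1% over all genes.

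Fzd2, a Frizzled that can bind Wnt5a, was at 314.9, 364.2 and 401.4 in static arrays and at 37.7, 51.9 and 61.8 in shear arrays (1398304_at). The groups were far apart, and the mean was 7.14 times as high in static cells, at 360.2 ± 43.4 against 50.5 ± 12.1 (SD, n = 3). The change was -2.51 (95% interval -2.76 to -2.26, adjusted p = 3.0e-06), and between -2.62 and -2.42 in the 3 pairs.

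Fzd4, a receptor for Wnts and for norrin, fell on both of its probe sets. The brighter (1376997_at) went from 63.8, 83.6 and 70.1 in static arrays to 6.6, 5.6 and 3.4 under shear, so that its shear signal was below the low-signal limit. The dimmer (1369468_at) went from 27.3, 32.3 and 22.7 to 7.7, 12.8 and 13.0. Neither overlapped between groups. The changes were -2.06 (95% interval -2.37 to -1.75, adjusted p = 1.5e-05) and -0.68 (-1.0 to -0.35, adjusted p = 0.0045), and the first ran from -3.60 with a pseudocount of 1 to -0.98 with a pseudocount of 64.

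Fzd8, which binds several Wnts with high affinity, was at 86.6, 88.7 and 85.7 in static arrays and at 346.3, 366.0 and 406.8 under shear (1383721_at). It changed by 1.91 (95% interval 1.67 to 2.16, adjusted p = 7.6e-06), from a mean of 87.0 ± 1.54 to 373 ± 30.9 (SD, n = 3). Fzd3, a Frizzled known from planar polarity and axon guidance, read 20.0, 16.1 and 24.2 in static and 88.1, 145.2 and 112.4 in shear arrays (1385636_at). Its change was 1.85 (95% interval 1.46 to 2.23, adjusted p = 7.2e-05). For both genes the lowest shear array was well above the highest static array.

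Fzd6, the closest relative of Fzd3, rose by 0.36 (adjusted p = 0.022), from 108 ± 8.18 to 143 ± 9.51 (SD, n = 3), but did not pass without pair 2 (0.38, adjusted p = 0.11) or without pair 3 (0.33, adjusted p = 0.16). Fzd1, another Frizzled receptor, did not pass. Its signals were 660.5, 433.0 and 496.2 in static arrays and 360.9, 516.5 and 663.1 under shear, with differences of -0.84, 0.25 and 0.41 in pairs 1 to 3. The change was -0.06 (95% interval -0.57 to 0.44, adjusted p = 0.83), and without pair 1 Fzd1 passed as risen (0.33, adjusted p = 0.00074). Fzd5 was near the floor on 1 probe set and did not pass on the other (0.16, adjusted p = 0.45).

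Lrp6 and Lrp5 are the co-receptors of the beta-catenin branch. Lrp6 was at 244.1, 213.3 and 219.4 in static arrays and at 87.8, 75.9 and 90.6 under shear (1376725_at). Its change was -1.26 (95% interval -1.51 to -1.01, adjusted p = 5.1e-05), with all shear arrays below all static ones. Lrp5 was dimmer, at 12.6, 20.4 and 22.0 in static and 9.1, 11.3 and 5.6 in shear arrays (1380242_at). It fell by 0.47 on this probe set (95% interval -0.84 to -0.11, adjusted p = 0.036), without overlap, and by 0.47 on the other (adjusted p = 0.037), where static array 2 lay within the shear range. Both calls were lost under both rescalings and without pair 3 (adjusted p = 0.24 and 0.18). The first was lost without pair 2 (adjusted p = 0.073) and without the low-signal limit too, and the second without pair 1 (adjusted p = 0.12) and without the pair block (adjusted p = 0.078).

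**Figure D3:**
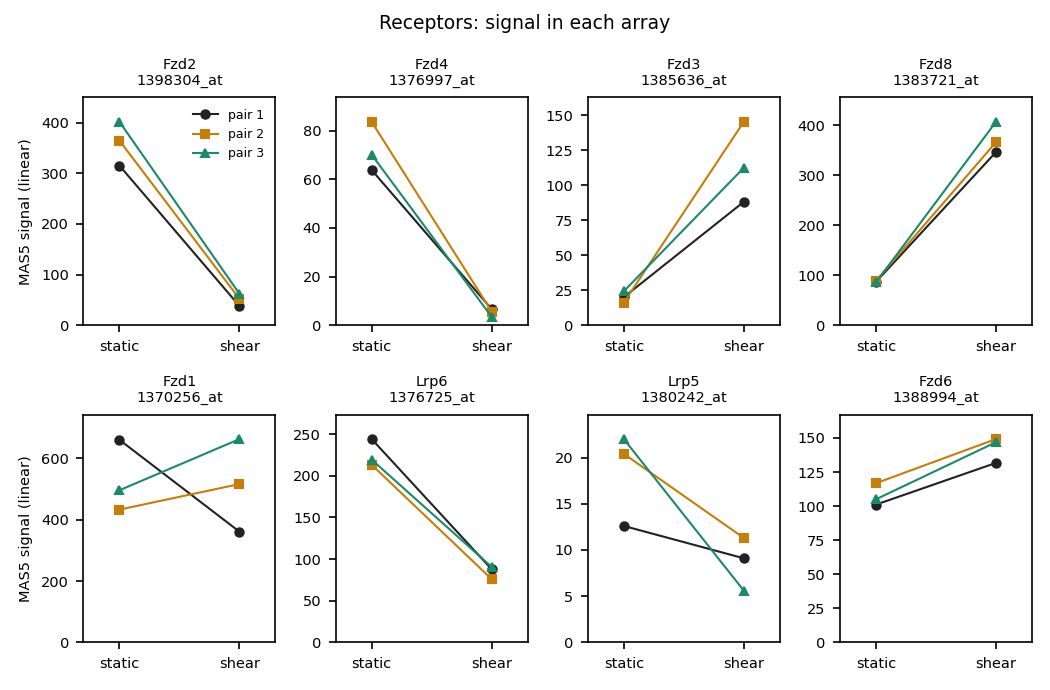
MAS5 signal (linear axis from 0, a separate scale per panel) of receptor and co-receptor probe sets in each array; lines join the arrays of a pair. Fzd2, Fzd4 and Lrp6 fell and Fzd3 and Fzd8 rose in all 3 pairs, whereas the Fzd1 lines cross.

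Among the secreted antagonists, a probe set of Sfrp1 and a probe set of Dkk3 passed as fallen, while other probe sets of both genes did not pass. Of 14 probe sets 8 were tested, 0 rose, 2 fell and 6 did not pass in limma. The called share was 25%, against 52.8% over all probe sets tested. At an unadjusted p under 0.05, likewise 0 were higher under shear. Sfrp1, which binds Wnts outside the cell, was at 43.4, 54.9 and 49.4 in static arrays and at 5.6, 24.2 and 19.5 under shear on its brightest probe set (1371861_at). Shear array 1 was the lowest, and no shear array reached the static range. This probe set fell by 1.05 (95% interval -1.42 to -0.69, adjusted p = 0.00085), while the dimmer ones (-0.06 and -0.25) did not pass.

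Dkk3, a Dickkopf relative that does not act on Lrp6 in the way of Dkk1, had probe sets that differed. The brightest (1370328_at) was at 226.6, 264.6 and 310.4 in static and 206.4, 351.8 and 378.4 in shear arrays and did not pass (0.18, 95% interval -0.10 to 0.46, adjusted p = 0.25), although it passed as risen without pair 1 (0.33, adjusted p = 0.0016). The next (1397754_at) went from 23.1, 22.3 and 27.1 to 8.2, 9.5 and 7.7 and fell by 0.71 (95% interval -1.02 to -0.41, adjusted p = 0.0025). The remaining Dkk3 probe sets and that of Dkk2 were near the floor. Sfrp2 (-0.04, adjusted p = 0.84), Sfrp4 (-0.22, adjusted p = 0.29) and Wif1, a Wnt-binding inhibitor (0.29, adjusted p = 0.17), did not pass, and Sfrp5 was not tested. Wif1 passed as risen after median centring (0.44, adjusted p = 0.039).

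Inside the cell, the scaffolds of the destruction complex rose while beta-catenin itself did not pass. Of 14 cytoplasmic probe sets 11 were tested, 5 rose, 2 fell and 4 did not pass (63.6% called, against 52.8% over all probe sets tested). Without pair 2, and likewise without pair 3, 3 rose and 0 fell.

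Apc, the tumour suppressor that helps hold beta-catenin in the complex, had signals of 166.8, 169.0 and 159.9 in static arrays and 440.7, 426.4 and 430.7 under shear on its brightest probe set (1376629_at). A second (1387837_at) gave 41.3, 33.6 and 30.2 against 82.2, 100.9 and 85.4, and the remaining one was near the floor. The spread within groups was small beside the difference. The changes were 1.31 (95% interval 1.09 to 1.53, adjusted p = 2.3e-05) and 1.05 (0.74 to 1.36, adjusted p = 0.00036). Axin1, the core scaffold, went from 135.6, 127.3 and 129.5 to 226.2, 242.7 and 275.7 (1387056_at), a change of 0.84 (95% interval 0.59 to 1.10, adjusted p = 0.00044).

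Ctnnb1 was bright in every array. Its brightest probe set (1373067_at) was at 2490 ± 368 in static and 2341 ± 361 in sheared cells (SD, n = 3), a change of -0.09 (95% interval -0.21 to 0.04, adjusted p = 0.20). The next (1373470_at) was at 1914 ± 113 and 1995 ± 199 (0.06, 95% interval -0.08 to 0.20, adjusted p = 0.46), and the third (1369733_at) at 348 ± 19.8 and 358 ± 54.1 (0.03, -0.26 to 0.32, adjusted p = 0.86). The intervals therefore allow changes of up to 0.32 in size. The brightest passed as fallen after quantile normalization (-0.23), the second as risen after median centring (0.21) and the third as risen without pair 1 (0.20). These arrays measure transcripts, and beta-catenin is known to be controlled mainly through protein stability.

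Of the Dishevelled genes, which relay the signal from the receptors, Dvl1 fell on both tested probe sets (-0.38, adjusted p = 0.024, for 1397351_s_at, and -0.57, adjusted p = 0.014, for 1369997_at). On 1369997_at the signals were 110.2, 98.6 and 91.3 in static arrays and 96.0, 48.2 and 50.2 under shear, so that shear array 1 lay within the static range. On 1397351_s_at they were 101.2, 102.1 and 86.1 against 74.8, 67.3 and 69.4, without overlap. Neither probe set passed without pair 2 (adjusted p = 0.099 for 1369997_at and 0.19 for 1397351_s_at) or without pair 3 (0.075 for each), and 1397351_s_at did not pass under either rescaling. Dvl2 rose by 0.35 (adjusted p = 0.042), from 18.1 ± 1.23 to 27.4 ± 2.29 (SD, n = 3), and did not pass with any 1 pair left out or without the low-signal limit. Dvl3 did not pass (0.06, adjusted p = 0.76).

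Axin2, a negative regulator that is itself induced by the pathway and widely used as its readout, was dim: 17.6, 4.9 and 7.0 in static arrays and 21.8, 13.4 and 16.8 under shear (1387184_at). The groups overlapped, but each shear array was above its own static partner. Axin2 rose by 0.39 (95% interval 0.07 to 0.71, adjusted p = 0.045). The call was lost without the pair block (adjusted p = 0.11), with a random block (adjusted p = 0.095), without the low-signal limit (adjusted p = 0.072), with a pseudocount of 1 (0.91, adjusted p = 0.051), without pair 2 (adjusted p = 0.17) and without pair 3 (adjusted p = 0.21).

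The nuclear factors split, with Lef1 and Tcf7 up and Tcf7l1 and Tcf7l2 down. All 10 of their probe sets were tested, 3 rose, 5 fell and 2 did not pass (80% called, against 52.8% over all probe sets tested). These come from 4 genes, of which 2 rose and 2 fell on their brightest probe set. Lef1, a TCF/LEF factor that beta-catenin turns into an activator, read 31.5, 20.1 and 14.7 in static arrays and 164.8, 107.4 and 97.4 under shear on its brighter probe set (1383785_at). The other (1370138_at) read 10.9, 10.2 and 1.2 against 136.9, 75.7 and 52.9. Shear array 1 was the highest on both. The changes were 1.86 (95% interval 1.60 to 2.13, adjusted p = 1.1e-05) and 2.11 (1.74 to 2.47, adjusted p = 2.9e-05). Tcf7, its close relative, went from 33.9, 18.9 and 24.1 to 69.2, 55.6 and 59.3 (1376197_at), a change of 0.91 (95% interval 0.63 to 1.19, adjusted p = 0.00048).

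Tcf7l1, known mainly as a repressor of target genes, went from 74.4, 66.0 and 82.2 to 50.0, 35.9 and 44.3 on its brighter probe set (1390283_at), and fell by 0.61 (95% interval -0.88 to -0.33, adjusted p = 0.0033). Its dimmer probe set (1382558_at) went from 27.6, 32.9 and 19.6 to 14.3, 13.4 and 14.7 (-0.49, adjusted p = 0.022), a call lost under both rescalings (-0.35 and -0.34), without the low-signal limit and without pair 2. Tcf7l2, the most abundant factor of the family in many tissues, was at 253.3, 295.7 and 303.6 in static and 166.1, 213.9 and 191.7 in shear arrays on its brightest probe set (1377156_at), and fell by 0.54 (95% interval -0.77 to -0.31, adjusted p = 0.0024). A second (1392592_at) went from 46.3, 57.9 and 48.5 to 30, 31.2 and 21.4 (-0.62, adjusted p = 0.0039). Another (1379815_at) went from 22.7, 32.4 and 22.9 to 12.2, 13.9 and 15.1 (-0.49, adjusted p = 0.016). The first and second of these remained called in every alternative setting that tested them, while 1379815_at was lost under both rescalings and without pair 2 (-0.39, adjusted p = 0.11). The 2 dimmest (-0.37 and 0.10) did not pass, and the former passed as fallen without pair 1 (-0.71).

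RefSeq promoter sequences (build GRCr8) were matched for 29 of the 40 genes. Each is the 250 bases before the annotated start, written 5′ to 3′ on the gene's strand. They are printed for Axin2, the pathway readout, for a risen nuclear factor (Lef1), for a risen ligand (Wnt5a), for a risen receptor (Fzd8) and for a fallen one (Fzd4). Capitals mark matches, on either strand, to TCF/LEF letters (CTTTGAA or CTTTGAT or CTTTGTA or CTTTGTT) or to the AP-1 letters TGACTCA and TGAGTCA, which are each other's reverse complement. No marked matches overlap.
Axin2, GRCr8 chr10:94398535-94398784, plus strand: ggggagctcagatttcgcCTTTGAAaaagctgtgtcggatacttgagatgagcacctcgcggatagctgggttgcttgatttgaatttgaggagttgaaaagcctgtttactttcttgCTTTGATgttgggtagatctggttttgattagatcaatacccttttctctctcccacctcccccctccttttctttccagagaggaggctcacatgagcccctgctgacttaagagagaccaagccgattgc
Lef1, GRCr8 chr2:222340463-222340712, plus strand: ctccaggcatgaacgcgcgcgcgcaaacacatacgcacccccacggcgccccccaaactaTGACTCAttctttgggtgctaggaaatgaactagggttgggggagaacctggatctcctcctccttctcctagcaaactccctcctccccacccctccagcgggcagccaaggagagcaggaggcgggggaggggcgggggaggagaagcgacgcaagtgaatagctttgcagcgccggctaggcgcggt
Wnt5a, GRCr8 chr16:3703415-3703664, plus strand: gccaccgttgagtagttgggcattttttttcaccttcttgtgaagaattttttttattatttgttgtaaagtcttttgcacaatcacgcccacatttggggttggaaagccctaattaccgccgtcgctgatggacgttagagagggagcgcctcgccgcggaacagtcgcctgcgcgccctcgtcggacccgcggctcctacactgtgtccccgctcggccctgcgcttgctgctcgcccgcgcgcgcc
Fzd8, GRCr8 chr17:62009744-62009993, plus strand: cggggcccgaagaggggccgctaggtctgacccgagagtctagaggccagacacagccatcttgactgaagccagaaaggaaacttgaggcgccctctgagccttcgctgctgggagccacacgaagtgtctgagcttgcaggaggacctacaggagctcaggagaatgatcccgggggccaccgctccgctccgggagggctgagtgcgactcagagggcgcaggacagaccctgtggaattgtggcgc
Fzd4, GRCr8 chr1:152692257-152692506, plus strand: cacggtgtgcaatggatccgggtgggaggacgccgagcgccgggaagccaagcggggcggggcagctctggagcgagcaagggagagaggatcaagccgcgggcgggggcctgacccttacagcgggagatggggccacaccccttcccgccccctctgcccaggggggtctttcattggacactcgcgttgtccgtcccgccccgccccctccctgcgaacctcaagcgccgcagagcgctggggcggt
Axin2 holds CTTTGAA starting 232 bases before its start and CTTTGAT starting 132 bases before it, both on the gene's strand. Lef1 holds TGACTCA 190 bases before its start and no TCF/LEF letters in this window. The windows of Wnt5a, Fzd8 and Fzd4 hold neither. Over all 33469 promoters 14.9% held TCF/LEF letters and 4.05% held AP-1 letters. Among the 29 Wnt promoters 2 held TCF/LEF letters (Axin2 and Sfrp5) and 2 held AP-1 letters (Lef1 and Wnt16). Their median GC content was 67.2%, against 51.2% for all promoters. The part of base composition in these shares was not tested. A match is a description of these letters, not a site of binding.

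**Figure D4:**
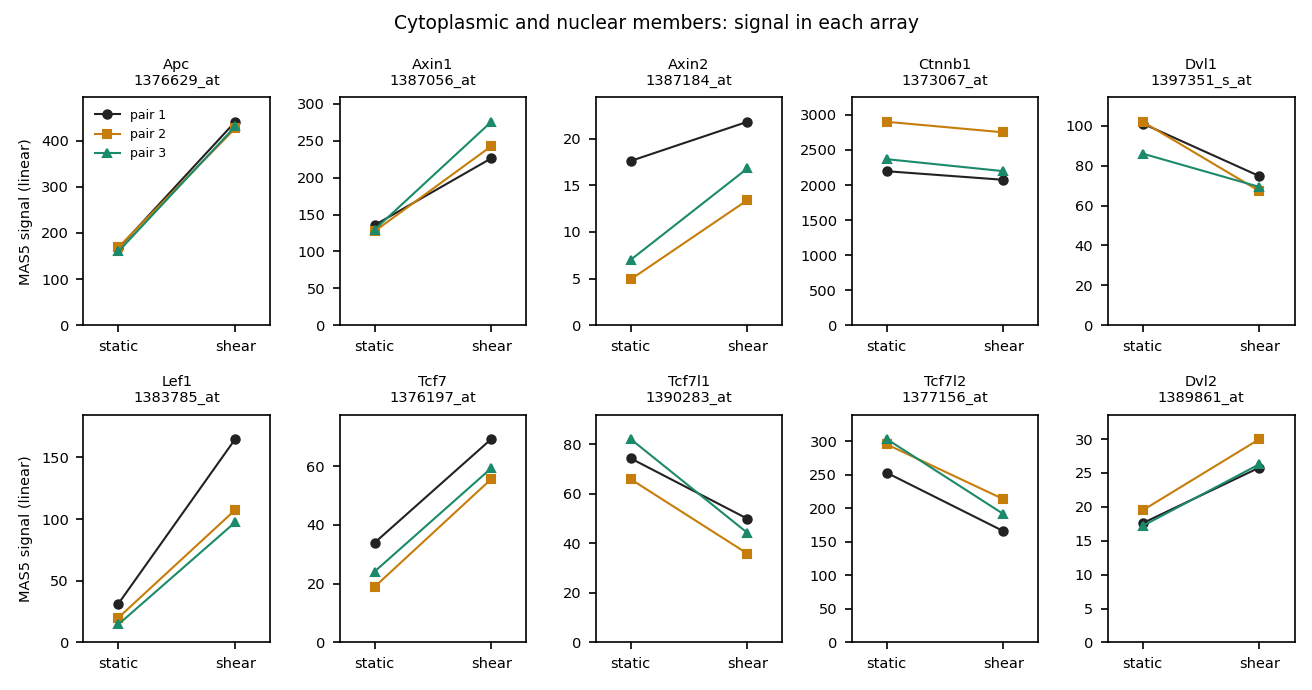
MAS5 signal (linear axis from 0, a separate scale per panel) of cytoplasmic and nuclear probe sets in each array; lines join the arrays of a pair. Apc, Axin1, Lef1 and Tcf7 rose and Tcf7l1 and Tcf7l2 fell in all 3 pairs, and Ctnnb1 stayed between 2075 and 2902 on this probe set.

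Beyond these genes, 95 list entries covered the rest of the pathway, of which 82 were matched and 76 tested, each gene by its brightest probe set. Of the 76, 20 rose, 25 fell and 31 did not pass, against 27.9% risen and 30.2% fallen (58.1% called) over all 11248 genes tested in this way. The median change was -0.12, against -0.05 for all those genes. The called share of the 76 was 59.2%. These lists were chosen with earlier results of these data known.

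Of 14 genes of the destruction complex list, 8 rose, 1 fell and 5 did not pass, with a median of 0.35. The called share was 64.3%, against 58.1% over all genes. Without pair 2, and likewise without pair 3, 5 rose. After quantile normalization 2 fell. Gsk3b, the kinase that marks beta-catenin for removal, rose by 1.77, from 123 ± 11.5 to 458 ± 47.8 (SD, n = 3). The ubiquitin ligase subunits Cul1 (1.08) and Fbxw11 (0.73) and the kinase Csnk1d (0.96) rose as well, although Csnk1d had 2 risen, 2 fallen and 1 uncalled probe set. Btrc, also counted as risen (0.39), had 1 risen, 1 fallen and 1 uncalled probe set. The paralogue Gsk3a did not pass (0.17, adjusted p = 0.30).

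Genes of the planar polarity and calcium branches fell in 12 of 25 cases, rose in 3 and did not pass in 10. Their called share was 60%, against 58.1% over all genes, and their median change was -0.34. Prickle1, a core planar polarity protein, went from 956 ± 64.6 to 285 ± 38.5 (SD, n = 3) and fell by 1.70. The Wnt co-receptors Ptk7 (-1.69) and Ryk (-1.04) fell, and so did the calcium-dependent kinase subunit Camk2g (-1.0), whose second probe set did not pass (0.01). Rac1 rose on its brightest probe set (0.34) and fell on another (-0.40). After median centring 10 of these genes fell and 6 rose.

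Of 9 genes for ligand secretion and receptor turnover, 4 fell, 1 rose and 4 did not pass, with a median of -0.17. Here 55.6% were called, against 58.1% over all genes. Wls, which carries Wnts to the cell surface, fell by 0.74, from 1257 ± 93.4 to 747 ± 8.37 (SD, n = 3), and the glypican Gpc4 fell by 0.74. The R-spondin receptor Lgr5 fell by 0.87, with a shear signal of 2.63 ± 2.02 (SD, n = 3), near the floor. Znrf3, the ligase that removes Frizzled from the membrane, rose by 0.95 from a static signal of 18.1 ± 2.32 (SD, n = 3).

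Inhibitors outside the main group split, with 4 risen, 4 fallen and 3 not passed of 11, and a median of -0.20. Of these inhibitors 72.7% were called, against 58.1% over all genes. Dact1, a Dishevelled partner, went from 108 ± 11.3 to 12.7 ± 4.16 (SD, n = 3), and fell by 2.12, while Dact3 fell by 0.97 and the binding protein Igfbp4 by 0.79. Frzb, an Sfrp relative, rose by 0.80 (adjusted p = 0.0016) with groups that overlapped (44.0 ± 19.5 and 93.1 ± 47.9, SD, n = 3), and did not pass without the pair block. Nuclear cofactors had 4 risen, 4 fallen and 9 not passed of 17 (47.1% called), with a median of -0.14. Tbl1xr1 (-1.11) and Tbl1x (-1.07), subunits of a corepressor complex, fell, and the Groucho corepressor Tle4 (0.93) and the acetyltransferase Crebbp (0.72) rose, although 1 of 4 Crebbp probe sets fell. Without pair 3, 2 of these cofactors fell.

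Genes known as beta-catenin targets in some tissue did not move in 1 direction. Of 26 tested, 13 rose, 9 fell and 4 did not pass (84.6% called), against 27.9% risen, 30.2% fallen and 58.1% called over all genes tested by their brightest probe set. The genes of this list were chosen with earlier results of these data known. They had a median change of 0.30, with a lowest of -2.71 and a highest of 4.27. Of the genes described above, Axin2, Lef1, Tcf7 and Znrf3 are among the risen and Lgr5 is among the fallen. The Axin2 call was lost in 6 alternative settings. The 4 with the smallest p-values were Ccn5, a matricellular protein, which fell by 2.71, Plaur, the urokinase receptor, which rose by 4.27 (its second probe set by 0.99), the hyaluronan receptor Cd44, which rose by 2.05, and connexin 43, Gja1, which fell by 1.37.

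**Figure D5:**
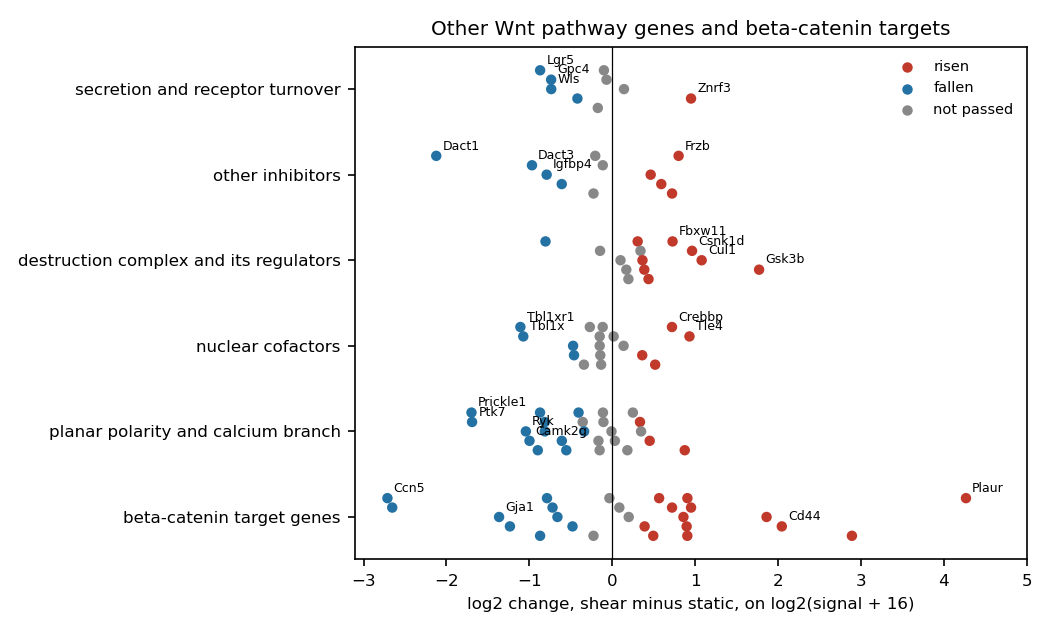
Change of each tested gene of the other pathway lists and of the beta-catenin targets (brightest probe set, shear minus static on the log2(signal + 16) scale), coloured by call, with the 4 genes of smallest p-value per list named. The destruction complex list has 8 risen points and 1 fallen, and the planar polarity and calcium list 3 risen and 12 fallen.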

How the data were processed

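RNA from 6 samples was hybridised to Affymetrix rat arrays, 1 array per sample. The authors deposited linear signal intensity values in 1 table, made with MAS5 per the submitters' processing notes. On every array the mean after trimming 2% at each end was 100.0, and these values were used without rescaling. MAS5 detection calls were not used here, so low signals have no call of presence, and precision is limited by the 3 arrays per group. The platform annotation, of 2016, gives 20826 of 31042 probe sets 1 gene symbol, 436 several and 9780 none, after 57 control probe sets were left out. Of the first, 20758 matched the RefSeq table of GRCr8 by gene ID, and 0 symbols changed.

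Signals were tested as log2(signal + 16) with limma 3.58.1 in R 4.3.3 (lmFit and eBayes with an intensity trend, two-sided), and a fixed block for pair, after leaving out the dimmest 30% of probe sets. Adjustment was by Benjamini-Hochberg, across every probe set that was tested. Tables and plots were made with Python 3.11.15, pandas 2.3.3 and matplotlib 3.10.9. The procedure was also run on simulated data without a pair effect and with few changed probe sets, all well above the floor. That setting differs from these arrays, so it does not show how the procedure performs on them. The labels give the pairing. Deviations from the group means correlated at 0.07, 0.06 and 0.06 within pairs 1 to 3, and between -0.07 and 0.02 for other combinations.

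The genes and lists were chosen with earlier results of these data known. Values of each array are given for called Wnt probe sets with the same sign in all 3 pairs, up to 25 by absolute change. Dkk, Sfrp, Wif1 and Axin2 are named whatever their call, and of each other list up to 4 genes by smallest p. Values outside this rule (Wnt6, Fzd1, the Dvl1 probe set 1397351_s_at, Wnt11, Gsk3a and Rac1 among them) were added after they were seen. Lists other than the Wnt genes use each gene's brightest probe set. Alternatives were median centring or quantile normalization, no block or a random one, no low-signal limit or one of 50%, pseudocounts of 1 and 64, no trend, robust estimation, a threshold of 0.1 and leaving out each pair in turn.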

Additional observations from a re-analysis of the deposited data

Results flagged for a closer look

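Both Wnt11 probe sets lay below the low-signal limit, so they entered no comparison, and both read higher in all 3 shear arrays than in any static array. The mean signal of 1395594_at was 0.433 ± 0.153 in static and 10.5 ± 4.92 in sheared cells (SD, n = 3), a ratio of 24.2. That of 1397501_at was 1.70 ± 1.15 and 7.63 ± 1.10 (SD, n = 3), a ratio of 4.49. The static signals under these ratios are close to 0. Both probe sets were flagged because every shear array lay above every static one, with a mean at least 2 times as high. The p-values that follow come from those same signals and are no separate support. When the limit was dropped, both passed in limma, with changes on the log2(signal + 16) scale of 0.67 (adjusted p = 0.0081) and 0.42 (adjusted p = 0.010). They were the only 2 of the 18 untested Wnt probe sets that passed then, and 0 passed as fallen. Over all 31042 probe sets, 4744 passed as risen and 5852 as fallen in that fit. The share among the other probe sets below the limit was not computed.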

How the results depend on the processing

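Of the 25 Wnt probe sets given in full, 21 kept their call and direction in every one of the 14 alternatives that tested them, and 0 called Wnt probe sets reversed. The other 4 (Dvl1 1369997_at, Tcf7l2 1379815_at, Tcf7l1 1382558_at and Lrp5 1380242_at) each lost the call in at least 2 alternatives, as given with their values. The 16 fallen Wnt probe sets became 10 after median centring and 9 with the 50% low-signal limit, which tests fewer probe sets. Over all probe sets, 6188 fallen became 4720 and 5159. Leaving out 1 pair left 12 to 17 risen and 10 to 17 fallen, in fits with 1 residual degree of freedom. Over all probe sets, the same fits left 3876 to 5819 risen and 4565 to 7190 fallen. Without the replicate block 14 rose and 15 fell (5232 and 6198 over all probe sets); of the Wnt probe sets, Axin2 and Lrp5 1380241_a_at lost their call. Apart from the construction named, the cause of these changes was not tested. Signals near the floor limit what can be seen of Wnt5b, Wnt8b, Wnt10a, Wnt11, Wnt16, Dkk2 and Sfrp5, of which all probe sets were untested.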
